A study of Mus musculus with 24 samples.

Results

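The 10 genes described here, H2-K1, H2-D1, H2-Q7, B2m, Tap1, Tap2, Tapbp, Psmb8, Psmb9 and Nlrc5, serve the presentation of peptides on major histocompatibility complex (MHC) class I molecules. They were taken by symbol from the 55376 gene symbols of the count tables, with earlier results of these data known. All 10 were found and tested in every comparison. Polyadenylated RNA was sequenced in 24 libraries of sorted bone marrow cells from male mice that carried a deletion of an AU-rich motif in the Zfp36 gene in both copies and in every cell (TTPdeltaARE), and from wild-type (WT) littermates, none of them treated. Zfp36 encodes tristetraprolin (TTP), a protein that binds AU-rich stretches in messenger RNAs and speeds their decay, and the deleted motif lies in the 3′ untranslated region of its own messenger. Hematopoietic stem cells (HSC), sorted as lineage-negative Sca1+ cKit+ (LSK) CD34- Flk2- CD150+ cells, came from young mice of 4 to 5 months (Y-WT HSC, n = 4, and Y-TTPdeltaARE HSC, n = 4) and from middle-aged mice of 1 year (M-WT HSC, n = 5, and M-TTPdeltaARE HSC, n = 3). Multipotent progenitor 3 cells (MPP3), a myeloid-biased progenitor, came from young mice (Y-WT MPP3, n = 4, and Y-TTPdeltaARE MPP3, n = 4). Since the deletion was present in the germline, the cells around the sorted ones carried it too. The labels do not say whether each library came from its own mouse, so p-values measure the spread between these libraries only.

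Class I molecules sit on nearly all nucleated cells and show fragments of the cell's own proteins to CD8+ T cells. Proteins are cut by the proteasome, and under interferon its catalytic subunits are exchanged for the inducible ones encoded by Psmb8 and Psmb9. The peptides are pumped into the endoplasmic reticulum by the TAP transporter, made of the products of Tap1 and Tap2, and Tapbp encodes tapasin, which holds an empty class I molecule beside the transporter. A class I molecule is a heavy chain, from H2-K1 or H2-D1 (classical) or H2-Q7 (non-classical, known as Qa-2), bound to the light chain β2-microglobulin from B2m. Nlrc5 encodes the transactivator that drives transcription of most of these genes. Blood stem cells are known to carry class I on their surface.

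In the gene annotation of mouse build GRCm38, 8 of the 10 genes lie on chromosome 17, within the MHC region. Psmb9, Tap1, Psmb8 and Tap2 stand side by side between positions 34181987 and 34216321. B2m is at chr2:122147686-122153083 and Nlrc5 at chr8:94434356-94527272. The promoters below, from RefSeq (GRCm38.p6), show the shared letters upstream of the heavy chains, the light chain and the start region that Tap1 and Psmb9 have in common. RefSeq promoter entries were matched for 8 of the 10 members, not for Tap2 and Nlrc5. Capitals mark, where present, GGGGATTCCCC (a palindrome of the NF-κB type), TGACGC (the core of site α of class I promoters), ATTGG or its reverse CCAAT (the CCAAT box) and GAAANNGAAA (an interferon response type repeat). All were searched on both strands.
H2-K1, chr17:34000349-34000463, minus strand: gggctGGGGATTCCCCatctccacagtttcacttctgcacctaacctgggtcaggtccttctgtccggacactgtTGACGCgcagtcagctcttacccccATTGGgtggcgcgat
H2-D1, chr17:35262918-35263032, plus strand: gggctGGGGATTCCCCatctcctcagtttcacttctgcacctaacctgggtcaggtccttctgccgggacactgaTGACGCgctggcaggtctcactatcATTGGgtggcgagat
H2-Q7, chr17:35439017-35439131, plus strand: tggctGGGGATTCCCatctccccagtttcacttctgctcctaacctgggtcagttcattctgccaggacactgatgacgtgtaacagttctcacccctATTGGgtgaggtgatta
B2m, chr2:122147543-122147657, plus strand: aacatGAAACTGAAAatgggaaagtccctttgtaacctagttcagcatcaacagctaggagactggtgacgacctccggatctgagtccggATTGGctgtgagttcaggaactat
Tap1 and Psmb9, chr17:34187331-34187555, plus strand: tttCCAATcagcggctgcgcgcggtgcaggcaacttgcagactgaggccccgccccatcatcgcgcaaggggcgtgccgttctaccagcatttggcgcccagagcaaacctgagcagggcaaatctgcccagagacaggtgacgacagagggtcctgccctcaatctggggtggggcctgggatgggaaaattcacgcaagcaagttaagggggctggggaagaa

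The H2-K1 and H2-D1 stretches were identical at 89.6% of their bases. GGGGATTCCCC was found in these promoters alone among the 8 members, and in 0.0222% of all 27025 promoters of 300 bases. H2-Q7 holds the first 10 of its 11 bases, in capitals above. ATTGG was found in 7 of the 8 members and in 37.9% of all promoters, TGACGC in 2 members and 7.5%, and GAAANNGAAA in B2m and 3.49%. Among other letters searched, TTCNNNGAA (of the STAT type) was found in Psmb8 and in 8.47% of promoters. The NF-κB letters GGGANTTCC and the cyclic AMP response element TGACGTCA were found in 0 of the 8 members and in 1.69% and 1.88% of promoters. Tap1 and Psmb9 are read in opposite directions from neighbouring starts, and their promoter windows overlap by 275 of 300 bases. In the 3′ untranslated regions, the AU-rich letters ATTTA were found in 4 members, B2m, Tap1, Nlrc5 and H2-Q7, and in 61.5% of 20610 genes. The longer form TATTTAT was found in 1 member, Nlrc5, and in 25.4% of these genes. The site in Nlrc5, with the letters in capitals, is shown because TTP binds sites of this kind.
Nlrc5, base 744 of the 3′ untranslated region: tttttttaagTATTTATaagcaccttc
The longest form TTATTTATT was found in none of the members and in 6.91% of genes. These shares were not matched for length: the median region over all genes was 797 bases, and those of the members had 188 to 1197. A match of letters is a description of the sequence and no evidence of binding. Looser forms of the interferon response letters were not searched, so their absence from the other members is not shown.

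The libraries held 24261371 to 39934554 counted reads. Levels are given as CPM, the read count scaled by library size, after scaling all 24 libraries together by the trimmed mean of M-values (TMM). Zfp36, the targeted gene, averaged 47.5 ± 17.3 CPM (SD) in Y-WT HSC and 94.9 ± 8.31 in Y-TTPdeltaARE HSC, 50.2 ± 7.22 and 102 ± 5.8 in the middle-aged groups, and 29.5 ± 7.32 and 105 ± 19.2 in MPP3, with no overlap between genotypes. Some cell markers separated the sorts: Slamf1, which encodes CD150, averaged 57.6 to 122 CPM in the HSC groups and 1.66 to 2.35 in MPP3. Mpo, a myeloid granule enzyme, averaged 0.54 to 3.56 and 658 to 1412, and Flt3, which encodes Flk2, 23.3 to 62.2 and 525 to 706. Kit and Ly6a, which encode cKit and Sca1, did not separate them. Kit averaged 1199 to 1644 in the HSC groups and 937 to 1387 in MPP3, and Ly6a 224 to 260 and 184 to 270. The library Y-TTPdeltaARE MPP3 replicate 4 stood apart: the 709 genes with under 1000 bases of exon were higher there by a median of 0.72 on the log2 scale than in its group, while the 6864 genes over 4000 bases had a median difference of 0. In the other 23 libraries the short genes lay between −0.29 and 0.20. Results that rest on this library are given with and without it. Library numbers in the labels run on within each age and cell type, and within these by genotype. The labels do not say what the numbers stand for. Any effect of their order cannot be told apart from age, cell type or genotype.

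The 10 genes together took 0.975% of the reads in Y-WT HSC, 1.1% in Y-TTPdeltaARE HSC, 1.04% in M-WT HSC, 1.11% in M-TTPdeltaARE HSC, 0.976% in Y-WT MPP3 and 1.23% in Y-TTPdeltaARE MPP3. Per kilobase of exon, the light chain was the highest in every group. In Y-WT HSC, B2m stood at 3354 CPM per kilobase, H2-D1 at 968 and H2-K1 at 864, and the libraries of H2-D1 and H2-K1 overlapped. H2-Q7 followed at 110, Tapbp at 102 and Psmb8 at 90.8, each overlapping the next of these 3. The transporter and the second inducible subunit were lower, with Tap2 at 58.7, Psmb9 at 51.6 and Tap1 at 36.7, of which Tap2 and Psmb9 overlapped. Nlrc5, the regulator, was lowest at 8.71, and it was the lowest of the 10 in each of the other 5 groups too, at 11.1 to 14. In Y-WT MPP3 the order behind the classical heavy chains was Psmb8 at 132, H2-Q7 at 117, Tapbp at 108 and Tap2 at 100, each overlapping the next, so that the inducible subunit, behind H2-Q7 and Tapbp in Y-WT HSC, came before them.

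**Figure D1:**
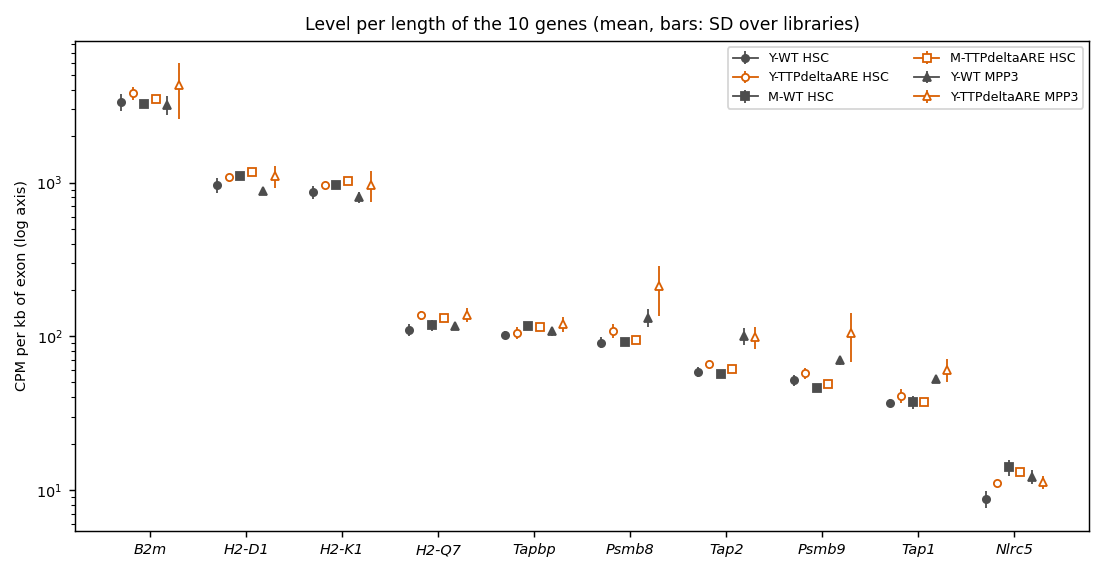
Mean level of the 10 genes per kilobase of exon (CPM per kilobase, log axis) in each of the 6 groups, with bars for the SD over libraries, WT in filled grey and TTPdeltaARE in open orange symbols. B2m lies highest, at 3354 in Y-WT HSC, the 2 classical heavy chains next, and Nlrc5 lowest, at 8.71.

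Some members share reads with other genes. Of all stretches of 100 bases in H2-Q7 transcripts, 21.9% occur in another gene as well, most often H2-Q6, and 4.64% of those of H2-D1 do. Exon bases are shared with neighbouring genes by 6 members. Tap1 and Psmb9 share 212 with each other on opposite strands. Tapbp shares 1053 of its 3628 exon bases with Zbtb22, on the same strand, and Gm19412, Tap2 shares 698 and Psmb8 498 with genes on the opposite strand, and Nlrc5 shares 78. Whether reads were counted by strand is not given in the sources used here, so the values of these 6 genes, of H2-Q7 and of H2-D1 are less certain than those of H2-K1 and B2m, which share neither such stretches nor exon bases.

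**Figure D2:**
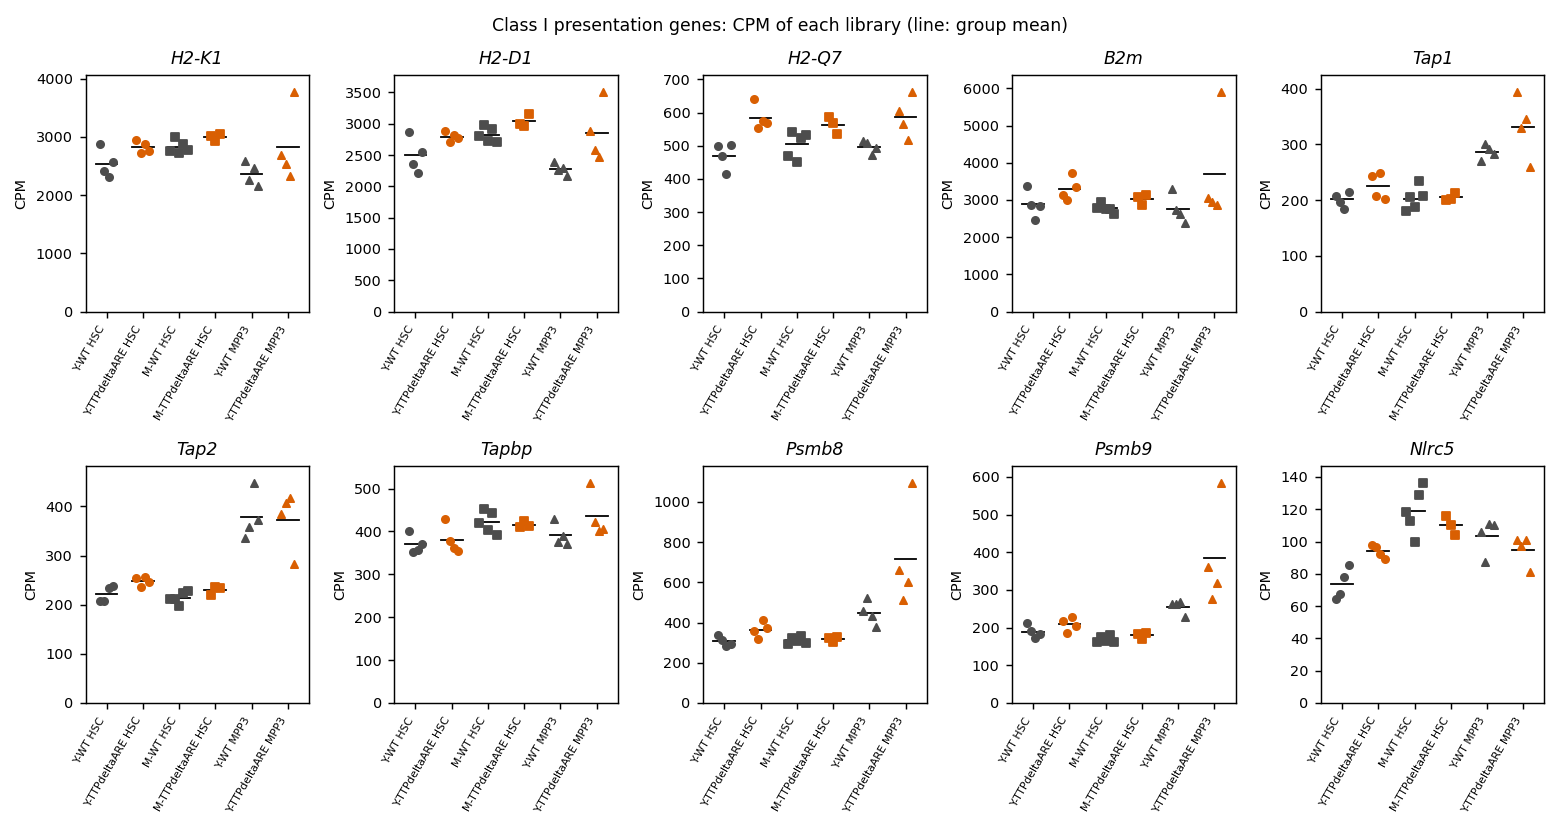
CPM of each of the 10 genes in each of the 24 libraries (points, WT in grey and TTPdeltaARE in orange), with group means (lines) and a panel for each gene. Y-TTPdeltaARE MPP3 replicate 4 lies far above its group for B2m (5900) and below it for Tap2 (283), and the Nlrc5 values of Y-WT HSC (64.4 to 85.6) lie below those of every other group except Y-TTPdeltaARE MPP3 replicate 4 at 80.9.

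The first question was whether the deletion changed class I presentation genes in young HSC. The level of Nlrc5 was 64.4, 67.6, 78.3 and 85.6 CPM in the 4 Y-WT libraries and 98, 96.4, 92.4 and 89.4 in the 4 Y-TTPdeltaARE libraries. All Y-TTPdeltaARE values were above all Y-WT values. H2-Q7, the non-classical heavy chain, was at 498, 468, 415 and 501 CPM in Y-WT and at 640, 553, 574 and 570 in Y-TTPdeltaARE, again without overlap. Beside these 2 of 10 members, 4.04% of all genes tested were higher in the mutant without overlap. The difference was 0.31 ± 0.10 for Nlrc5 (log2, SE, 95% interval 0.09 to 0.52) and 0.27 ± 0.09 for H2-Q7 (0.08 to 0.47), and neither passed the edgeR quasi-likelihood test over all genes (adjusted p = 0.4126 and 0.4220).

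By that test none of the 10 members was called in young HSC, where a call needs an adjusted p under 0.05, a fold over 1.2 and an average log2 CPM over 1.5. Only 0.0246% of all 24381 genes tested were called, and Zfp36, the targeted gene, was not among them. It differed by 0.96 ± 0.21 (log2, SE, adjusted p = 0.2379 by the same test), so a missing call here does not show an unchanged level. Nlrc5 and H2-Q7 had an unadjusted p under 0.05. DESeq2 called 1 member, H2-Q7 (0.29, adjusted p = 0.0263), and edgeR's likelihood ratio test called none. The adjusted p of H2-Q7 ranged from 0.0263 to 0.9212 over the alternatives. DESeq2 and the likelihood ratio test each called more of all genes than the quasi-likelihood test, with counts given at the end. In 9 of 10 members the difference was above 0, with a median of 0.12, against 0.03 over all genes that passed the level limit. The classical heavy chains and the light chain differed by 0.11 to 0.15. Psmb8 differed by 0.20 (0 to 0.41), and Tapbp by 0 (−0.21 to 0.20). The summed level of T and NK cell markers was 87.8 to 105 CPM in Y-WT HSC and 128 to 241 in Y-TTPdeltaARE HSC, and its part in these differences was not tested. Fewer cells of a type and less RNA per cell cannot be told apart in bulk samples.

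In middle-aged HSC the genotypes overlapped for all 10 genes. Nlrc5 was at 118, 113, 100, 129 and 136 CPM in M-WT and at 116, 110 and 104 in M-TTPdeltaARE. The mutant values thus lay inside the wild-type range. H2-K1 was at 2764, 3005, 2717, 2883 and 2767 CPM in M-WT and at 3015, 2921 and 3048 in M-TTPdeltaARE. None of the 10 members was called, against 1.41% of all genes, and 0 had an unadjusted p under 0.05. DESeq2 and edgeR's likelihood ratio test also called 0. Beside 0 members, 8.25% of all genes were higher in the mutant without overlap. The differences ran from −0.16 (Nlrc5, interval −0.36 to 0.03) to 0.11 (H2-Q7, −0.03 to 0.25), with 6 of 10 above 0 and a median of 0.04. The narrowest interval, that of H2-K1, was −0.06 to 0.13.

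In MPP3 the largest differences were those of the inducible proteasome subunits and B2m, and no member passed the test. Psmb8 was at 457, 521, 434 and 379 CPM in Y-WT and at 661, 512, 601 and 1092 in Y-TTPdeltaARE. Psmb9 was at 264, 262, 268 and 229 in Y-WT and at 360, 277, 318 and 583 in Y-TTPdeltaARE. In both genes the highest value was that of Y-TTPdeltaARE MPP3 replicate 4, and for Psmb8 the groups met at 512 and 521. H2-D1 was at 2382, 2257, 2299 and 2172 CPM in Y-WT and at 2882, 2580, 2471 and 3505 in Y-TTPdeltaARE. B2m was at 3291, 2730, 2611 and 2372 in Y-WT and at 3041, 2943, 2877 and 5900 in Y-TTPdeltaARE. Without replicate 4 the B2m values of the mutant lay inside the wild-type range.

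The difference between genotypes in MPP3 was 0.61 ± 0.17 for Psmb8 (log2, SE, interval 0.23 to 0.99, adjusted p = 0.1426), 0.52 ± 0.16 for Psmb9 (0.17 to 0.87, 0.1757) and 0.28 ± 0.09 for H2-D1 (0.09 to 0.47, 0.1779). These were the 3 members with an unadjusted p under 0.05 in edgeR's quasi-likelihood test, which called none of the 10, against 1.71% of all genes. H2-D1, Psmb9 and H2-Q7 were higher without overlap, as were 5.05% of all genes. The median over the members was 0.21, with 8 of 10 above 0, and over all genes that passed the level limit it was 0. Tap2 (−0.03, −0.45 to 0.39) and Nlrc5 (−0.14, −0.49 to 0.20) were the members below 0. DESeq2 called Psmb8 (adjusted p = 0.0193), Psmb9 (0.0361) and H2-D1 (0.0166). An edgeR fit of all 24 libraries called Psmb8 (0.0108), Psmb9 (0.0185) and H2-D1 (0.0331) as well, while edgeR's likelihood ratio test called 0. Each of these fits called more of all genes than the quasi-likelihood test, with counts given at the end. Over the alternatives the adjusted p ranged from 0.0075 to 0.4226 for Psmb8, from 0.0041 to 0.4702 for Psmb9 and from 0.0020 to 0.9069 for H2-D1.

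Without replicate 4, the quasi-likelihood test again called no member, against 1.67% of all genes, and 4 had an unadjusted p under 0.05. Psmb8 then differed by 0.42, Psmb9 by 0.34, Tap1 by 0.33 and H2-D1 by 0.24, with adjusted p from 0.1444 to 0.1806. DESeq2 without that library called Psmb8, Psmb9 and Tap1. It also called more of all genes than the quasi-likelihood test, with the count given at the end. Tap1 was at 271, 301, 291 and 282 CPM in Y-WT and at 394, 329, 345 and 259 in Y-TTPdeltaARE, so that the other 3 mutant libraries were above all wild-type ones. Markers of other cells moved with genotype in MPP3: the summed level of macrophage and monocyte markers was 539 to 878 CPM in Y-WT and 1125 to 1956 in Y-TTPdeltaARE, and that of dendritic cell markers 672 to 825 and 1258 to 1881. The dendritic list includes Flt3, used above to separate MPP3 from HSC, which averaged 525 and 706 CPM and made up most of the Y-WT sum. Also on that list, Xcr1 averaged 1.44 and 70.5 CPM and Itgax 2.27 and 24.3. Their part in the values of the class I genes was not tested.

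**Figure D3:**
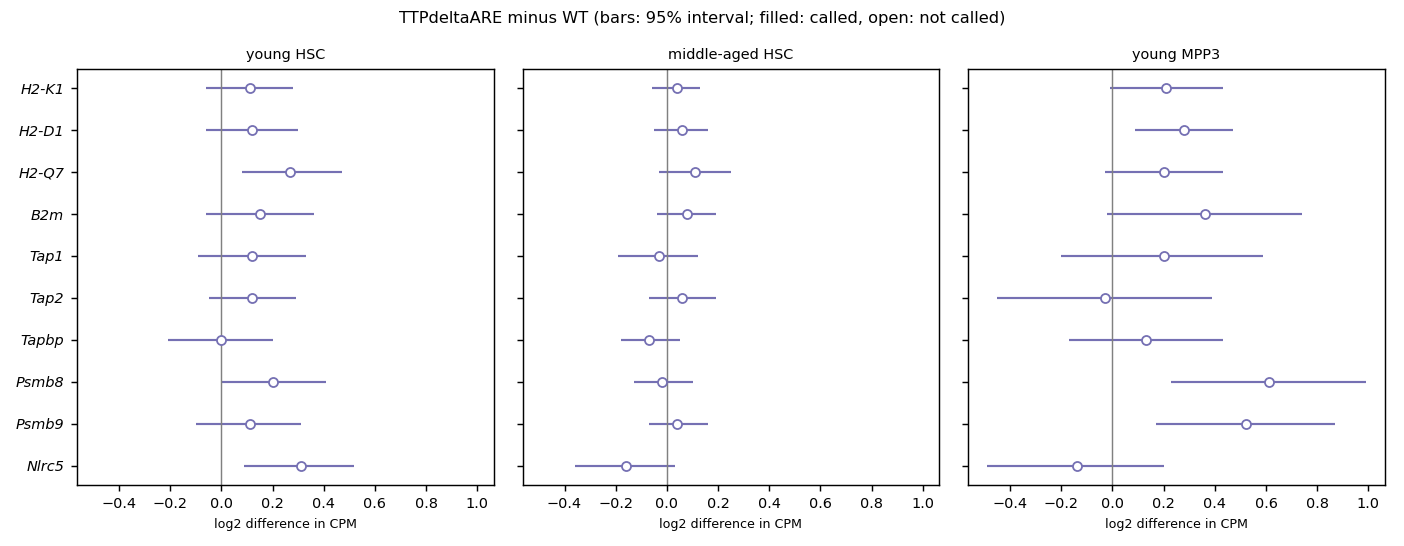
Difference between TTPdeltaARE and WT (log2, with 95% intervals) for each of the 10 genes in young HSC, middle-aged HSC and young MPP3, with open circles for differences that were not called. The intervals of Nlrc5 and H2-Q7 in young HSC and of Psmb8, Psmb9 and H2-D1 in MPP3 exclude 0, and no member passed the test over all genes.

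Since Psmb8 and Psmb9 replace standard subunits, their levels per kilobase were set against those of Psmb5 and Psmb6, and Psmb10, another inducible subunit, against Psmb7. This comparison was chosen after the members' values were seen. The ratio of Psmb8 to Psmb5 averaged 1.26 in Y-WT MPP3 (1.2 to 1.3) and 1.57 in Y-TTPdeltaARE MPP3 (1.44 to 1.74), without overlap. The ratio of Psmb9 to Psmb6 averaged 0.525 (0.463 to 0.589) and 0.629 (0.602 to 0.652), also without overlap. Each had p = 0.0286 in a two-sided exact permutation test, the smallest that 4 against 4 allows, and an adjusted p = 0.1286 over the 9 tests made (exact permutation). Psmb10 to Psmb7 averaged 3.05 and 3.28 and overlapped. In HSC the ratios differed by less than the spread between libraries at both ages (adjusted p = 0.8571 by exact permutation). Without replicate 4 the MPP3 ratios of the mutant were 1.61 and 0.634 and stayed without overlap, where 3 against 4 cannot go below 0.0571.

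**Figure D4:**
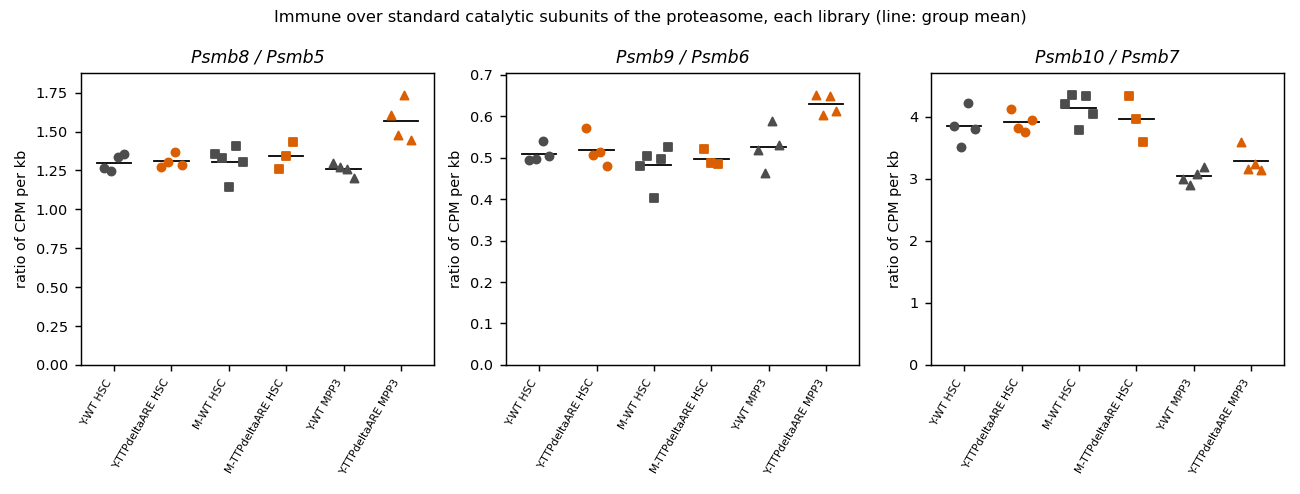
Ratio of each inducible proteasome subunit to its standard counterpart (levels per kilobase, no unit) in each library of the 6 groups, with group means. For Psmb8 to Psmb5, all 4 Y-TTPdeltaARE MPP3 libraries (1.44 to 1.74) lie above the Y-WT MPP3 libraries (1.2 to 1.3).

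The next question was how HSC and MPP3 differ. In WT mice, 5 of the 10 members were called higher in MPP3 than in HSC and none lower, against 22.2% of all genes called in either direction. They were both transporter subunits, both inducible proteasome subunits and Nlrc5. Tap2 was at 208, 208, 235 and 238 CPM in Y-WT HSC and at 336, 358, 447 and 372 in Y-WT MPP3. The lowest MPP3 library was thus far above the highest HSC library. The difference was 0.73 ± 0.10 for Tap2 (log2, SE, adjusted p = 8.4e-04), 0.47 ± 0.10 for Tap1 (0.0063), 0.50 ± 0.12 for Psmb8 (0.0156), 0.45 ± 0.11 for Nlrc5 (0.0163) and 0.39 ± 0.10 for Psmb9 (0.0203). For these 5 genes MPP3 was higher without overlap, as it was for 20.2% of all genes. The heavy and light chains and tapasin were not called: H2-K1 differed by −0.15 (−0.36 to 0.07), H2-D1 by −0.18 (−0.41 to 0.05), B2m by −0.12 (−0.40 to 0.17), Tapbp by 0.04 (−0.17 to 0.24) and H2-Q7 by 0.04 (−0.18 to 0.26).

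Against TMM, scaling by plain library totals lowered the median over all genes by 0.22 on the log2 scale in this comparison and moved the calls. By totals, Tap2 and Psmb8 stayed higher, Tap1, Nlrc5 and Psmb9 were not called, and H2-K1 (−0.36, adjusted p = 9.3e-04), H2-D1 (−0.39, 0.0012) and B2m (−0.33, 0.0143) were called lower. Leaving out Y-WT MPP3 replicate 2 ended the calls of Psmb8 (adjusted p = 0.0536) and Psmb9 (0.0784). Nlrc5 was lost without Y-WT HSC replicate 2 (0.0538) or Y-WT MPP3 replicate 1 (0.0520), and Psmb9 without Y-WT HSC replicate 3 (0.0554).

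In TTPdeltaARE mice, Psmb8 (0.84 ± 0.17, adjusted p = 0.0055) and Psmb9 (0.75 ± 0.16, 0.0103) were called higher in MPP3 than in HSC, 2 of 10 members against 16.3% of all genes. Psmb8 was at 356, 319, 411 and 374 CPM in Y-TTPdeltaARE HSC, below all 4 MPP3 libraries of the same genotype. Tap1 (0.48, adjusted p = 0.0969) and Tap2 (0.51, 0.0695) were not called. These 4 genes were higher in MPP3 without overlap, as were 16.9% of all genes. In Tap2, replicate 4 was at 283 CPM and the other MPP3 libraries at 384 to 417, against 236 to 256 in HSC. Without replicate 4, 4 members were called, against 17.2% of all genes, namely Tap1 (0.64, 0.0059), Tap2 (0.67, 4.7e-04), Psmb8 (0.67, 0.0029) and Psmb9 (0.58, 0.0079). The calls above come from fits without pairs. The labels give no pairs, and the replicate numbers were taken as pairs here from a correlation in these data. With that replicate block Tap1 was called as well (0.45, adjusted p = 0.0405), 3 in all. Without Y-TTPdeltaARE HSC replicate 1 or Y-TTPdeltaARE MPP3 replicate 1, Psmb9 was lost (0.0573 and 0.0555). Nlrc5 was at 98, 96.4, 92.4 and 89.4 CPM in HSC and at 101, 97, 101 and 80.9 in MPP3, with overlapping ranges (−0.07, −0.39 to 0.25).

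**Figure D5:**
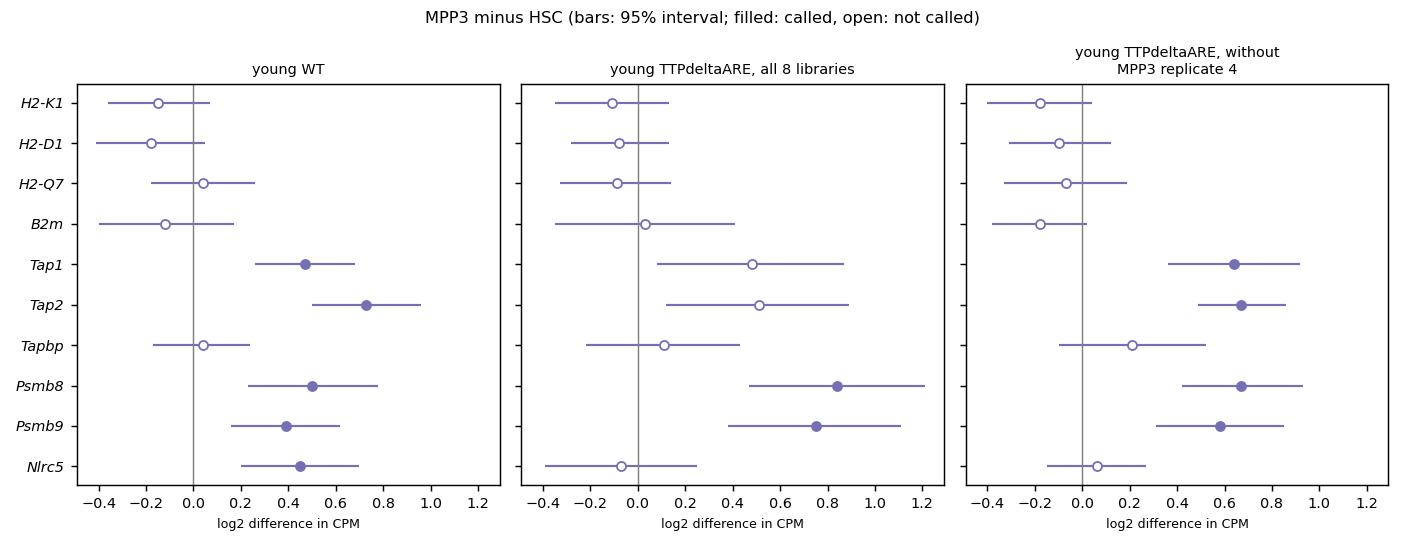
Difference between MPP3 and HSC of young mice (log2, with 95% intervals) for each of the 10 genes, in WT and in TTPdeltaARE, the latter also without replicate 4, with filled circles for calls. Tap1, Tap2, Psmb8 and Psmb9 lie above 0 in each, and H2-K1 and H2-D1 lie below 0.

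With age, Nlrc5 was the only member called in WT HSC. It was at 64.4, 67.6, 78.3 and 85.6 CPM in the young libraries and at 118, 113, 100, 129 and 136 in the middle-aged ones, so every middle-aged library was above every young one, as for 10.5% of all genes. The difference was 0.68 ± 0.11 (log2, SE, interval 0.43 to 0.93, adjusted p = 0.0029, edgeR), and it was called under all 18 alternatives. This was 1 member of 10, against 12.1% of all genes, and 5 members had an unadjusted p under 0.05. Tapbp differed by 0.18 (adjusted p = 0.0413), under the fold limit. H2-K1 (0.15, 0.0779), H2-D1 (0.17, 0.0668) and Psmb9 (−0.17, 0.0585) were not called, but H2-D1 was called without Y-WT HSC replicate 1 (0.27, 0.0030). In TTPdeltaARE HSC, 0 of 10 members were called with age, against 8.22% of all genes, and 3 had an unadjusted p under 0.05. DESeq2 and the likelihood ratio test also called 0. Nlrc5 differed by 0.22 (0.05 to 0.39, adjusted p = 0.1092), and its middle-aged libraries, at 104 to 116 CPM, were above the young ones at 89.4 to 98. H2-D1 was also higher without overlap (0.12, adjusted p = 0.4064), 2 of 10 members beside 12.7% of all genes. Psmb9 was lower without overlap (−0.22, 0.1663), 1 of 10 beside 9.51%.

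The genotype differences themselves were compared between cell types and between ages. By edgeR's quasi-likelihood test 0 of 10 members were called in either interaction, against 0.429% of all genes for cell type and 0.0213% for age, with 1 and 2 members at an unadjusted p under 0.05. DESeq2 and the likelihood ratio test called 0. Nlrc5 had the largest absolute values in both. Its genotype difference was lower in MPP3 than in HSC by −0.57 ± 0.16 (log2, SE, adjusted p = 0.1859), and by −0.45 without replicate 4 (0.3825). It was lower in middle-aged than in young HSC by −0.52 ± 0.14 (0.2242). All 10 members had a negative value in the age interaction, with a median of −0.12, except that by library totals Tap2 was at 0.01 and Tapbp and Psmb9 at 0, and the median over all genes past the level limit was −0.11. These comparisons share libraries: the 4 Y-WT HSC libraries, in which Nlrc5 was lowest, enter the genotype, cell type and age comparisons alike.

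Around the members, the lists of other class I genes held few calls between genotypes. In both HSC comparisons no gene was called in the lists of other heavy chains, loading and trimming factors, other interferon-inducible proteasome parts and standard proteasome subunits. The lists of class I regulators, interferon receptors and interferon-stimulated genes held no call there either. Of all genes, 0.0246% were called in young HSC and 1.41% in middle-aged HSC, so a missing call does not show an unchanged level. In MPP3, where 1.71% of all genes were called, 1 of 13 tested other heavy chains was called, H2-M3. It presents formylated bacterial peptides and rose from a mean of 56.5 to 81.5 CPM (0.49 ± 0.09, adjusted p = 0.0264). None of 12 loading and trimming factors, 14 standard subunits and 4 other inducible proteasome parts was called. The medians were 0.12 for the loading factors, 0.31 for the standard subunits and 0.55 for the inducible parts, and without replicate 4 the last 2 fell to 0.07 and 0.30.

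Of 16 regulators, 2 were called higher in mutant MPP3, against 1.71% of all genes called in either direction. Irf8, a transcription factor of monocyte and dendritic lineages, went from 37.8 to 370 CPM (3.25 ± 0.34, adjusted p = 7.6e-04), and Ciita, the class II transactivator related to Nlrc5, from 9.54 to 76.7 (2.96 ± 0.18, 7.2e-05). Both chains of the interferon-γ receptor were higher, Ifngr1 at 178 and 315 CPM (0.79 ± 0.12, 0.0062) and Ifngr2 at 45.7 and 74.9 (0.67 ± 0.11, 0.0097), 2 of 8 in their list. Of 30 interferon-stimulated genes 3 were called, all higher: Irf7 (1.09 ± 0.16, 0.0053), an interferon regulatory factor, Mx1 (1.93 ± 0.28, 0.0053), an antiviral GTPase, and Zbp1 (1.11 ± 0.23, 0.0411), a sensor of nucleic acids. The list had a median of 0.28. Without replicate 4, 6 were called, Gbp2, Gbp4 and Iigp1 added. Between cell types the genotype difference was larger in MPP3 for Irf8 (2.96, 0.0030), Ciita (2.85, 2.1e-05), Irf7 (1.04, 0.0220) and Mx1 (1.94, 0.0327), and without replicate 4 no interferon-stimulated gene was called there.

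The class II presentation genes, which cross with these results, held more calls. In MPP3, 10 of 11 were called higher in the mutant, with a median of 2.39, against 1.71% of all genes called in either direction. Ciita, counted among the regulators above, is on this list as well. Cd74, the invariant chain, went from a mean of 364 to 3536 CPM (3.24 ± 0.36, adjusted p = 0.0012) and H2-Aa, a class II α chain, from 92.4 to 1222 (3.65 ± 0.24, 8.1e-05).

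In the WT comparison of cell types, 22.2% of all genes were called in either direction, and the lists around the members went both ways. Scaling by library totals, not used for these counts, moved the median over all genes by −0.22. Of 12 loading and trimming factors, 5 were higher in MPP3 and none lower, and 4 of 14 standard proteasome subunits were higher. Of 16 tested other heavy chains, 5 were lower in MPP3 and none higher, with a median of −0.44, and of 30 interferon-stimulated genes 12 were lower and 2 higher, with a median of −0.42. The median over the 10 members was 0.22, against 0.12 over all genes past the level limit.

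Across the 24 libraries, the members did not all vary together. H2-K1 and H2-D1 had a Pearson r of 0.96 between their log2 CPM and Psmb8 and Psmb9 one of 0.98, while H2-K1 and Psmb8 had 0.19, and −0.36 over the 23 libraries without replicate 4. The 5 other genes most like the mean of the members were Dbnl (0.90), Cnp (0.89), Metap1 (0.89), Nr1h2 (0.89) and Ppp5c (0.88). Of these 5, 2 stayed among the first 5 without replicate 4 and none did over the 16 HSC libraries. These are descriptions over libraries that share groups and scaling.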

How the data were processed

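The authors trimmed reads with Trim Galore!, aligned them to mouse genome mm10 with STAR and counted them per gene with featureCounts. The deposited values are raw counts for 55376 gene symbols per library, and the strand and multimapping settings are not given in the sources used here. The labels and the methods name different library kits, and the study used 3 of the 4 Y-TTPdeltaARE MPP3 libraries, while all 4 entered here. Groups came from the sample titles.

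Counts were tested with the quasi-likelihood test of edgeR 4.0.16 (R 4.3.3), each comparison on its own groups, after filterByExpr (minimum count 10, minimum total 15) and TMM scaling, with Benjamini-Hochberg adjustment over all genes tested. A call needed an adjusted p under 0.05, a fold over 1.2 and an average log2 CPM over 1.5, the limits of the study. Standard errors were derived from the F statistic, and 95% intervals from the t distribution. Intervals between libraries cover the spread between them, and Nlrc5, the least counted member, had 1891 to 5688 reads per library. The comparisons were TTPdeltaARE against WT in each of 3 groups, MPP3 against HSC in each genotype, middle-aged against young HSC in each genotype, and the 2 interactions. DESeq2 1.42.0, edgeR's likelihood ratio test, other scalings and filters, a fit of all 24 libraries, a replicate block and the omission of each library were tried. In MPP3 against HSC of TTPdeltaARE mice the deviations of same-numbered libraries correlated in all 4 pairs (r from 0.21 to 0.30, over genes). The replicate numbers were taken as pairs there and in no other comparison, though the labels give no pairs. Lower r, also above 0 in every pair, was seen in MPP3 against HSC of WT mice (0.07 to 0.2) and between genotypes in middle-aged HSC (0.09 to 0.11). The test was tried on simulated counts with 200 changed genes before use.

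No 2 libraries held identical counts, and every pair of replicates differed by more than sampling noise. Lengths came from GENCODE M21 (GRCm38) and promoter sequences from RefSeq. The rule for named genes was all 10 members, genes of the class I, regulator and interferon lists called in any genotype comparison or interaction, the 5 genes most like the members, Zfp36, Cd74 and H2-Aa. The members and lists were chosen with earlier results of these data known.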

Additional observations from a re-analysis of the deposited data

Results flagged for a closer look

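The B2m level of Y-TTPdeltaARE MPP3 replicate 4, 5900 CPM, lay far from the other 3 libraries of its group (2877 to 3041), by Dixon's test of the gap against the range. The Psmb9 level of Y-WT MPP3 replicate 4, 229 CPM, lay below the other 3 libraries of its group (262 to 268) by the same test. These were 2 of 50 tests over the members in groups of 4 or 5 libraries, and chance flags about 1 in 20.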

How the results depend on the processing

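Over 1760 differences of single members under the alternatives, 30 calls were gained, 10 were lost and 102 changed sign, and of the sign changes none was called in either fit and none exceeded 0.20 on the log2 scale. The number of members called higher was 1 in young HSC between genotypes with DESeq2. In MPP3 between genotypes it was 3 with DESeq2, 3 with DESeq2 without the fourth Y-TTPdeltaARE MPP3 library, and 3 with all 24 libraries in the fit. In MPP3 against HSC of WT mice library totals gave 2 higher and 3 lower. In MPP3 against HSC of TTPdeltaARE mice 4 were higher with DESeq2, with all 24 libraries, and without the fourth library under DESeq2, the likelihood ratio test or the replicate block, and library totals gave 1 lower (H2-K1, −0.26, adjusted p = 0.0486). With age in WT HSC it was 2 without a filter and with the adjusted p alone. Leaving out each library gave 3 to 5, 1 to 4 and 1 to 2 in the last 3 comparisons. The summed level of the members in Y-WT HSC was 10731 CPM on library totals against 9751, and of the 5 most alike genes 2 were shared by Spearman's measure and 0 over the 16 HSC libraries. The replicate block changed the call of Tap1 in MPP3 against HSC of TTPdeltaARE mice and of no other member. Elsewhere the numbers were not taken as pairs. There the block gave 108 of all genes called instead of 298 in middle-aged HSC between genotypes, and 3 instead of 6 in the age interaction. With age it gave 1580 instead of 2691 in WT and 914 instead of 1918 in TTPdeltaARE. The causes were not tested.

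Over all genes, the calls between genotypes rose from 6 to 304 (DESeq2), 146 (likelihood ratio test), 73 (no filter) and 18 (all 24 libraries) in young HSC, and from 326 to 766, 540 and 1244 (all 24 libraries) in MPP3. In middle-aged HSC, 298 became 835 (DESeq2), 842 (no filter) and 53 (all 24 libraries). All 24 libraries gave 5747 in MPP3 against HSC of TTPdeltaARE mice and 805 with age in TTPdeltaARE HSC, and the adjusted p alone gave 4453 with age in WT. The cell type interaction had 331, 202 and 261 under DESeq2, the likelihood ratio test and all 24 libraries instead of 113, and the age interaction 157, 27 and 2, and 16 without a filter, instead of 6. Without the fourth library, MPP3 between genotypes had 937 (DESeq2) and 541 (likelihood ratio test), and the cell type interaction 389 (DESeq2). Leaving out each library gave 0 to 12 in young HSC, without Y-WT HSC replicate 2 and replicate 1, and 68 to 299 in middle-aged HSC, the lowest without M-TTPdeltaARE HSC replicate 3.

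Sign changes between genotypes were as follows. Tapbp in young HSC became 0.01 with DESeq2 and RLE factors, 0.03 without antigen receptor segments, 0.07 without a filter and 0.04 with all 24 libraries, and −0.04 to 0.12 over left-out libraries. In middle-aged HSC, Psmb8 became 0.01 with library totals and 0.03 with all libraries (−0.07 to 0.02 over left-out libraries), and Tap1 0.01 with all libraries and 0.05 with the block (−0.09 to 0.01), while H2-D1 ran from 0 to 0.08, H2-K1 from −0.01 to 0.06 and Psmb9 from −0.02 to 0.08. Tap2 in MPP3 became 0.12 and 0.11 under DESeq2 and the likelihood ratio test without the fourth library (−0.13 to 0.11).

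In MPP3 against HSC of WT mice, Tapbp became −0.01 and H2-Q7 0 with DESeq2 and RLE factors, and both −0.18 with library totals. Over left-out libraries Tapbp ran from −0.01 to 0.16, H2-Q7 from −0.02 to 0.15, B2m from −0.21 to 0.05 and H2-K1 from −0.20 to 0. In TTPdeltaARE mice, B2m became −0.13 and Tapbp −0.04 with library totals. With all 24 libraries H2-K1 became 0, H2-D1 0.03, Nlrc5 0.02 and H2-Q7 0.01. B2m became −0.01 with the block, and without the fourth library −0.19 (DESeq2), −0.18 (likelihood ratio test) and −0.18 (block), with Nlrc5 at 0.06, 0.06 and 0.03. Over left-out libraries B2m ran from −0.18 to 0.12, Nlrc5 from −0.14 to 0.06 and Tapbp from −0.02 to 0.21.

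With age in WT HSC, Tap1 and Psmb8 became −0.02 and −0.01 with DESeq2 and RLE factors, and −0.08 and −0.07 with library totals. Tap1 became 0 without antigen receptor segments and −0.01 with the block, and B2m 0.02 and Tap2 0.03 without a filter. Over left-out libraries Tap1 ran from −0.05 to 0.04, Psmb8 from −0.02 to 0.09, B2m from −0.11 to 0.05 and, in TTPdeltaARE HSC, H2-Q7 from −0.08 to 0.01. In the cell type interaction, Tap1 became 0.06 with DESeq2 and RLE factors, 0.08 with library totals, 0.04 without segments, 0.03 without a filter and 0.05 with all libraries, and H2-K1 0 with the block. Without the fourth library, DESeq2 gave −0.01 for H2-K1, −0.03 for B2m and 0.20 for Tap1, and the likelihood ratio test −0.09, −0.12 and 0.11. Over left-out libraries B2m ran from −0.12 to 0.34, H2-K1 from −0.09 to 0.19, Tap1 from −0.08 to 0.11 and Tapbp from −0.02 to 0.18. In the age interaction, library totals gave 0.01 for Tap2 and 0 for Tapbp and Psmb9. Library totals moved the median over all genes by −0.22 and −0.15 in MPP3 against HSC of WT and TTPdeltaARE mice, and by 0.11 and 0.12 in the interactions.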
